A study of Mus musculus with 4 samples.

Results

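The Zfp genes are the mouse genes whose symbol is Zfp followed by a number, and the 207 described here are those with at least 500 counts in every one of the 4 libraries. The count table held 372 such symbols among 48587 genes, so that 207 of 372 (55.6%) met the count floor and 165 did not. The floor used the count level of the genes, so levels are described and not tested, while the rule itself uses no comparison of the hairpins, although it was set with earlier results of these data known. All 207 passed the filter on low counts that preceded the test, and so did 133 of the 165 genes under the floor.

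The libraries are poly-A mRNA-seq of primary vascular smooth muscle cells (VSMCs) that grew out of the descending aortas of C57BL/6J mice aged 8 to 12 weeks, after the adventitia and the endothelium had been removed. The cells, used between passages 5 and 7, were transduced for 24 hours with a lentivirus that carried either shMettl14, a hairpin against *Mettl14*, or shCTR, a nontargeting hairpin against a plant microRNA sequence, and were collected 48 hours later. Each group had 2 libraries, marked with the letters A and B, and neither the labels nor the methods state that a letter marks a shared culture. Each group carries 1 hairpin, so its effect cannot be told apart from other effects of that hairpin, and p-values measure only the spread between these libraries, which may be technical. METTL14 is the RNA-binding partner of METTL3 in the enzyme that writes N6-methyladenosine (m6A) on mRNA, and the comparison asks which mRNAs differ in level when it is depleted.

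Zfp proteins are named for zinc fingers, short folds in which a zinc ion is held by cysteine and histidine residues. Most carry arrays of C2H2 fingers in which neighbouring fingers are joined by a conserved linker and each finger reads a few bases of DNA. Many of them also carry a KRAB box, which recruits the corepressor TRIM28 and, through it, the histone methyltransferase SETDB1 and HP1 proteins to silence retroviral elements and imprinted regions. In transcripts, m6A is deposited mostly in long internal exons, in long last exons and near stop codons, at a short consensus that includes the words AAACC and GGACT.

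The linkers between fingers are shown first because they put a word of the m6A consensus into the coding sequence of these genes many times over. In the longest coding sequence of each gene (GENCODE M21, GRCm38), 127 of the 207 genes encoded at least 1 linker of the residues threonine, glycine, glutamate, lysine, proline and tyrosine, and together they held 630 such stretches of 18 bases. The word AAACC stood in 366 of the 630 stretches (58.1%), against 1.47% of all in-frame windows of 18 bases in the coding sequences of 9721 genes that met the same count floor. The stretches were chosen by residues that place proline after lysine, and the lysine codon AAA there always makes the word. The high share was thus set in part by that choice, and windows of any residues are not a matched comparison. The 630 stretches had 207 distinct codings, of which the most common occurred 51 times. That coding is printed first, followed by the linker nearest the amino terminus in each of the 12 genes that have one among the 10 Zfp genes with the highest and the 10 with the lowest log2 fold change, sense strand, with AAACC in capitals.
most common coding: acaggagagAAACCttac
*Zfp871* (chr17:32775453-32775470, minus strand, exon 4 of 4): acgggggagAAACCgtac
*Zfp950* (chr19:61120335-61120352, minus strand, exon 4 of 4): actggagagAAACCctat
*Zfp445* (chr9:122852889-122852906, minus strand, exon 7 of 7): acaggggagAAACCgtac
*Zfp867* (chr11:59464055-59464072, minus strand, exon 4 of 4): actggggagaagccctat
*Zfp120* (chr2:150117915-150117932, minus strand, exon 4 of 4): acaggagagAAACCttat
*Zfp932* (chr5:110008648-110008665, plus strand, exon 4 of 4): actggagagAAACCctac
*Zfp329* (chr7:12810960-12810977, minus strand, exon 2 of 2): actggagagAAACCgtat
*Zfp709* (chr8:71889554-71889571, plus strand, exon 4 of 4): actggagagAAACCctat
*Zfp1* (chr8:111669964-111669981, plus strand, exon 4 of 4): acgggcgagaagccctat
*Zfp382* (chr7:30133967-30133984, plus strand, exon 5 of 5): acaggggagaagccctac
*Zfp809* (chr9:22239082-22239099, plus strand, exon 5 of 6): acgggcgagAAACCatat
*Zfp7* (chr15:76890654-76890671, plus strand, exon 5 of 5): actggagagaagccttac

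The first 8 genes belong to the highest changes and the last 4 to the lowest. AAACC stood in the first linker of 7 of those 8 genes and of 1 of those 4, and in 58.1% of all 630 stretches. In the first linker of the other genes printed a synonymous codon takes its place, so that the same residues are encoded without the word. Over whole coding sequences, the first 8 genes held 6.50, 11.5, 3.38, 0.705, 6.12, 8.87, 4.47 and 7.79 AAACC words per kilobase, in printed order. The last 4 genes held 4.96, 4.61, 3.32 and 0.973, so that the values of the highest and the lowest overlapped. These genes were chosen by their log2 fold changes, and median coding GC content was 44.3% in the 10 highest and 58.7% in the 10 lowest. Whether the word in the linker goes with the change was not tested. The match of a word is a description of the sequence, and no m6A level was measured in these libraries.

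The encoded proteins held a median of 9 C2H2 fingers, and the largest number was 30, in *Zfp236*. More than 10 fingers were found in 93 proteins. A C2H2 pattern was absent from 7 proteins, among them *Zfp36*, whose fingers hold zinc with 3 cysteines and 1 histidine, and *Zfp503* and *Zfp703*, transcriptional repressors of the NocA family. A KRAB box was found in 95 of the 207 proteins by at least 1 of 2 letter patterns and in 58 by both. The proteins with a KRAB box had a median of 12 fingers, and the other 112 had a median of 6.

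Many of the transcripts had features that the choice by symbol and count did not use. A median of 81.2% of the coding sequence lay in the last exon, against 10.3% over all genes with the same floor. This share was 87.0% in the KRAB genes, 43.9% in the other 112 Zfp genes and 21.5% in the 49 with 1 to 5 fingers. The median 3′ UTR was 1309 bases, against 1037 bases in all genes with the floor. The coding sequences of the KRAB genes had a median GC content of 43.3% and those of the other Zfp genes 54.4%, with 52.8% over all genes with the floor. AAACC occurred at a median of 4.52 words per 1000 coding bases in the KRAB genes, 1.15 in the other Zfp genes and 0.815 over all genes with the floor. GGACT did not follow the same order, since its median was 0.894 words per 1000 coding bases in the Zfp genes and 1.06 over all genes with the floor. *Zfp950* had the most AAACC words for its length, 21 in all or 11.5 per 1000 coding bases, in a protein of 17 fingers. Of the 207 coding sequences, 90.3% held at least 1 AAACC, against 68.6% of the coding sequences of all genes with the floor. These shares are not matched for length, since the median coding sequence was 1812 bases in the Zfp genes and 1449 bases over all genes with the floor.

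**Figure D1:**
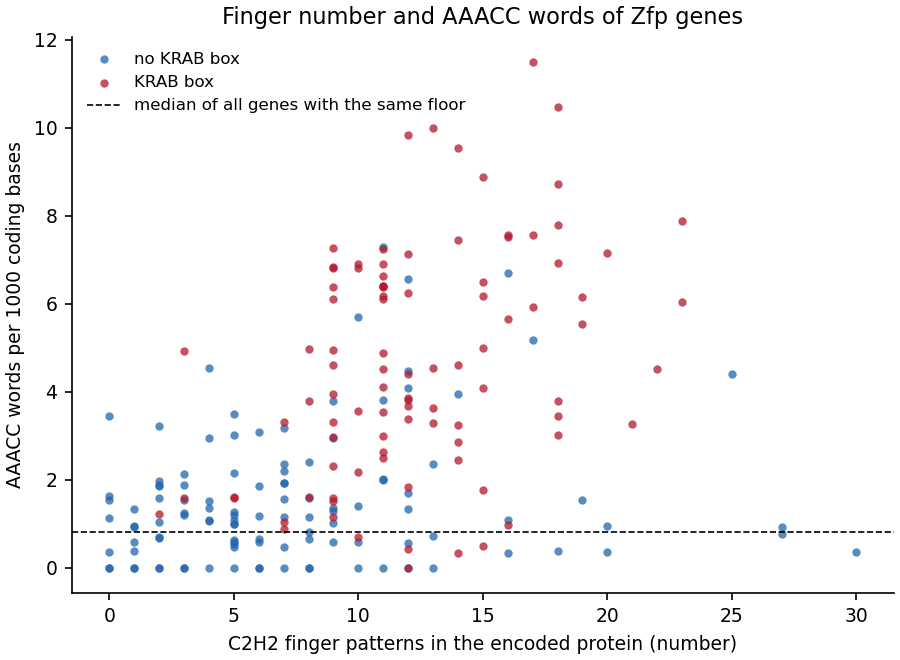
Each point is 1 of 207 Zfp genes, with the number of C2H2 finger patterns in its protein on the x axis and the number of AAACC words per 1000 coding bases on the y axis. KRAB genes (red) lie around a median of 4.52 words and the other Zfp genes (blue) around 1.15, and the dashed line marks the median of 0.815 over all genes with the same count floor.

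Zfp genes lie in clusters in the mouse genome. Chromosome 7 held 48 of the 207 (23.2%), against 7.13% of all genes with the floor. Chromosome 17 held 27 (13.0%, against 4.87%), of which 21 had a KRAB box. Near-identical copies make some counts uncertain, since in 28 of the 207 genes more than 10% of the 50-base words of the coding sequence also stood in a transcript of another gene. In 15 genes more than 10% of the exon bases overlapped an exon on the opposite strand, and the sources used here do not state whether the counting used strand.

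CPM are counts per 1000000, scaled by TMM. Totals ranged from 114343653 to 124815868 counts per library. At these totals 3 counts, taken as the bound for a gene with no reads, correspond to at most 0.0262 counts per 1000000 without that scaling. This bound covers counting error only, while a standard error (SE) comes from the fit and includes the spread between libraries. The targeted gene, *Mettl14*, stood at 18.05 and 19.9 CPM in shCTR A and B and at 4.60 and 4.37 CPM in shMettl14 A and B, a log2 fold change of -2.08 ± 0.25 (SE, 2 libraries per group). Its adjusted p was 0.99997 in the edgeR quasi-likelihood test, 3.05e-07 in DESeq2 and 0.00393 in edgeR with the letter as a block. Smooth muscle markers summed to between 4442 and 6797 CPM per library. Of these, 5 of 7 were lower in shMettl14 within both letters, against 27.6% of all genes tested and 34.6% of those with the floor. *Myocd*, a smooth muscle coactivator, stood at 0.546 and 0.918 CPM in the A libraries and at 7.10 and 6.60 CPM in the B libraries. The endothelial markers *Pecam1* and *Cdh5* were present at 477 to 820 CPM in all libraries, although the endothelium had been scraped off. The other endothelial markers listed were far lower, *Kdr* at 5.06 to 9.75, *Tek* at 5.04 to 10.9 and *Vwf* at 16.4 to 18.9 CPM. The 5 endothelial markers summed to between 1012 and 1678 CPM, mostly from *Pecam1* and *Cdh5*, with the highest sum in shCTR B. Leukocyte markers summed to at most 5.49 CPM, with *Adgre1* and *Cd3e* each at 0 in at least 2 libraries, and fibroblast markers to between 83.4 and 170 CPM. The part of these other cell types in the results was not tested, and in bulk libraries fewer cells of a type and less RNA per cell cannot be told apart.

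Per kilobase of exon, Zfp mRNAs were of modest and uneven abundance. Their mean levels ran from 0.686 to 24.2 CPM per kilobase, with a median of 3.17. The highest levels per length belonged to *Zfp36*, which binds AU-rich elements and promotes mRNA decay (24.2 CPM per kilobase), and *Zfp207*, a spindle assembly factor that binds BUB3 (23.5). *Zfp706* (16.6), *Zfp146* (14.8) and *Zfp106* (14.7) followed, and the last 2 differed by less than the spread between libraries. The level of *Zfp706* is uncertain because 92.2% of its coding words also stand in other transcripts. At the floor, *Zfp141* (lowest library count 506), *Zfp595* (509), *Zfp105* (515) and *Zfp40* (515) were just inside, and *Zfp235* (499), *Zfp202* (497), *Zfp97* (489) and *Zfp248* (481) were just outside. The 207 genes took 0.442% of all counts in shCTR A, 0.497% in shCTR B, 0.517% in shMettl14 A and 0.550% in shMettl14 B. After TMM scaling their summed level was 4506, 5258, 4992 and 5277 CPM in the same order, so that shCTR A stood below the other libraries and shCTR B stood between shMettl14 A and shMettl14 B.

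No Zfp gene passed the test of shMettl14 against shCTR. In the edgeR quasi-likelihood test, 0 of 207 had a Benjamini-Hochberg adjusted p under 0.05, as did 0 of all 18916 genes tested (0%). DESeq2 also called 0 of the 207, and 5 genes in all (0.0172%). At an unadjusted p under 0.05, edgeR gave 1 of 207, *Zfp358*, against 1.67% of all genes tested (1.01% lower), and DESeq2 gave 1, against 1.52% of the genes it tested. The standard error of the log2 fold change, with a median of 0.29, exceeded the change itself in 158 of the 207 genes. With 2 libraries on each side, the smallest two-sided p of an exact permutation test of a single gene is 0.333. The values that follow are therefore differences that were not distinguished from the spread between libraries.

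The log2 fold changes of the 207 genes ran from -0.64 to 0.72 with a median of 0.088, and 131 were above 0. Over all genes tested the median was 0.0094, and over the 10099 genes with the same floor it was -0.034. Within letter A the median log2 ratio of shMettl14 to shCTR was 0.15 for the Zfp genes and -0.047 for all genes with the floor. Within letter B the medians were 0.042 and -0.022. The Zfp median depended on the controls, since it was -0.047 without shCTR A, 0.26 without shCTR B, 0.14 without shMettl14 A and 0.030 without shMettl14 B.

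Direction within the letters was more often up than down. A higher level in shMettl14 within both letters was found for 91 Zfp genes (44.0%), against 30% of all genes tested and 25% of those with the floor. A lower level within both letters was found for 33 (15.9%), against 27.6% and 34.6%. The remaining 83 went opposite ways, of which 58 were higher in shMettl14 within letter A only and 25 within letter B only. Among the 10099 genes with the floor 4077 went opposite ways, 1847 of them higher within A only and 2230 within B only. Both shMettl14 libraries stood above both shCTR libraries for 44 Zfp genes (21.3%, against 14.7% of all genes tested and 10.5% of those with the floor), and below both for 14 (6.76%, against 13.3% and 17.1%). Across the 207 genes the ratios in A and in B had a Spearman correlation of 0.28, and over the 10099 genes with the floor it was 0.30. The genes of this correlation share the same 4 libraries and are not independent replicates. Leaving out each library in turn, 62 of the 207 genes were higher in all 4 such fits and 20 were lower in all 4. These counts have no share over all genes beside them and are not read as a trait of the Zfp genes.

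**Figure D2:**
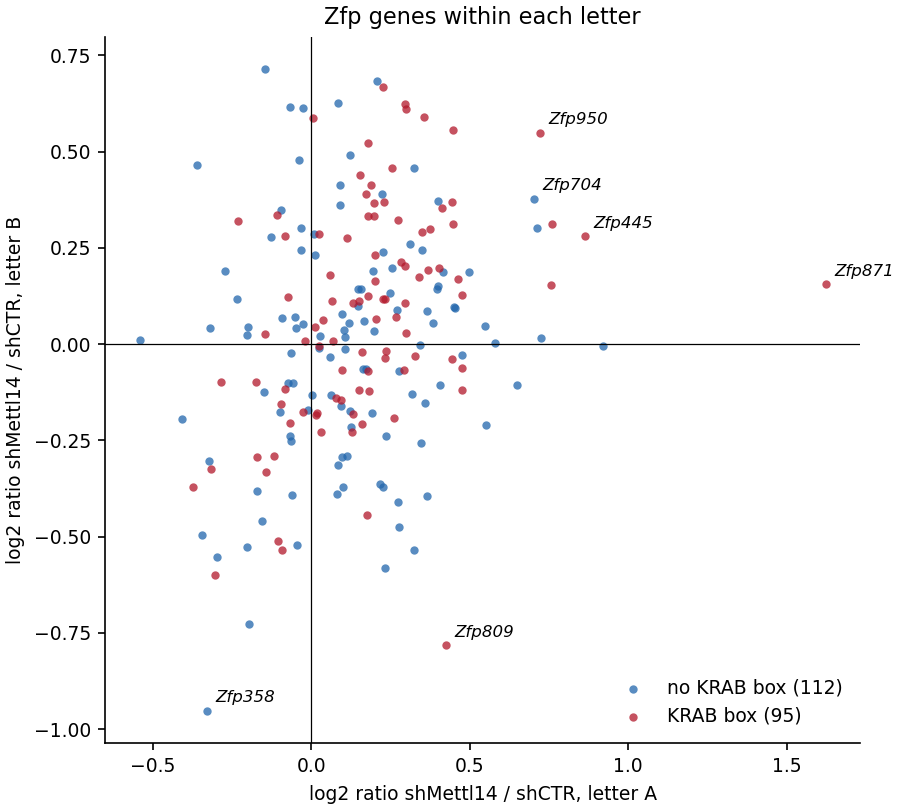
Each point is 1 of 207 Zfp genes, with the log2 ratio of shMettl14 to shCTR within letter A on the x axis and within letter B on the y axis, and genes whose protein has a KRAB box in red. The upper right field holds 91 genes and the lower left 33, and Zfp871 lies far to the right with a ratio of 1.62 in A and 0.16 in B.

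Genes that encode a KRAB box had higher values than the other Zfp genes, and the difference between these sets of genes was not tested. The 95 KRAB genes had a median log2 fold change of 0.13, and their median ratio was 0.18 in A and 0.11 in B. The 112 other Zfp genes had a median of 0.049, with 0.11 in A and 0.017 in B. A higher level within both letters was found for 51 of the 95 KRAB genes (53.7%) and for 40 of the 112 others (35.7%), and a lower level within both for 14 and 19. The summed level of the KRAB genes was 1102 CPM in shCTR A, 1565 in shCTR B, 1273 in shMettl14 A and 1612 in shMettl14 B, and that of the other Zfp genes was 3405, 3693, 3719 and 3666 CPM. The sums of the KRAB genes thus grouped by letter, with both A libraries below both B libraries. The number of fingers went with the change only weakly, with a Spearman correlation of 0.088 across the 207 genes. The chromosome 7 cluster had a median log2 fold change of -0.00084, and the largest median of the 7 chromosomes with more than 10 Zfp genes was 0.18, on chromosome 9, where 9 of 13 were higher within both letters.

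**Figure D3:**
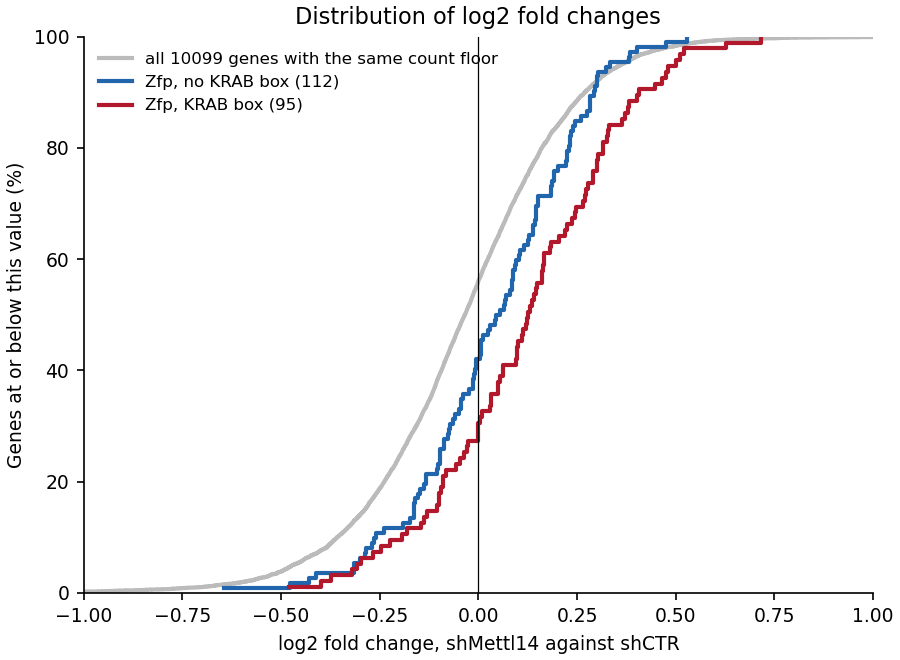
Cumulative share of genes (y axis, percent) at or below each log2 fold change of shMettl14 against shCTR (x axis), for the 95 Zfp genes with a KRAB box, the 112 without and all 10099 genes with the same count floor. The curves cross 50% near 0.13, 0.049 and -0.034, and the KRAB curve lies to the right of the curve of all genes over most of the range.

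The 10 highest values were described gene by gene because they span the range of patterns. In all 10 both shMettl14 libraries stood above both shCTR libraries, a count that follows in part from choosing the highest values. *Zfp871* (ENSMUSG00000024298, chr17:32765496-32788287, minus strand), a KRAB protein with 15 fingers, had the highest log2 fold change, 0.72 ± 0.49 (SE). Its levels were 10.3 and 28.1 CPM in shCTR A and B and 31.7 and 31.3 CPM in shMettl14 A and B. Only shCTR A was low, and without that library the log2 fold change was 0.17. *Zfp950* (ENSMUSG00000074733, chr19:61053840-61140840, minus strand), a KRAB protein with 17 fingers whose linker is printed above, stood at 20.8 and 27.7 CPM in shCTR and at 34.3 and 40.5 CPM in shMettl14. The change was 0.63 ± 0.24 (SE), with an unadjusted p of 0.051 in edgeR, and it was between 0.44 and 0.84 whichever library was left out. Its groups did not overlap, and each letter gave a higher level in shMettl14, by 0.72 in A and 0.55 in B on the log2 scale.

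*Zfp704*, which has 1 C2H2 pattern and a 3′ UTR of 11770 bases, stood at 26.6 and 34.6 CPM in shCTR and at 43.2 and 45.0 CPM in shMettl14, a log2 fold change of 0.53 ± 0.22 (SE). Of its exon bases, 16.6% overlap an exon on the opposite strand. *Zfp445*, a KRAB protein that helps maintain genomic imprints, stood at 22.2 and 39.3 CPM in shCTR and at 40.5 and 47.8 CPM in shMettl14. The groups of *Zfp445* nearly touched, since shCTR B and shMettl14 A differed by little, and its log2 fold change of 0.52 ± 0.33 (SE) was 0.17 without shCTR A. *Zfp867*, a KRAB protein with 10 fingers, had tight groups at low level, 7.97 and 7.26 CPM in shCTR and 10.9 and 10.7 CPM in shMettl14, with a log2 fold change of 0.50 ± 0.25 (SE). *Zfp369* (0.51), *Zfp120* (0.48), *Zfp932* (0.48), *Zfp329* (0.47) and *Zfp709* (0.47) completed the 10 highest log2 fold changes, each between 4.82 and 18.2 CPM in all libraries. *Zfp932* is uncertain, since 55.7% of its coding words stand in other transcripts. All 10 were above 0 in each of the 4 fits that left out 1 library, which follows from groups that do not overlap and is no further support.

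The 10 lowest values held 4 KRAB genes and the 10 highest held 8, while 95 of all 207 Zfp genes encode a KRAB box. The share among the lowest was thus near that of all Zfp genes, and the contrast came mainly from the highest. Both ends were chosen by log2 fold change, and the difference in KRAB genes between them was not tested. *Zfp358* (ENSMUSG00000047264, chr8:3493138-3497208, plus strand), with 9 fingers and no KRAB box, stood at 25.1 and 31.8 CPM in shCTR and at 19.98 and 16.4 CPM in shMettl14. Both shMettl14 libraries were below both shCTR libraries, and the log2 fold change was -0.64 ± 0.24 (SE), with an unadjusted p of 0.046 and an adjusted p of 0.99997 in edgeR. Without any 1 library it ran from -0.80 to -0.47. *Zfp414* was lower in the same way, with 12.7 and 17.1 CPM in shCTR and 11.1 and 10.3 CPM in shMettl14, a log2 fold change of -0.48 ± 0.27 (SE), although 33.8% of its coding words stand in other transcripts. *Zfp511* (-0.43), *Zfp653* (-0.41), *Zfp382* (-0.37), *Zfp1* (-0.32) and *Zfp362* (-0.31) also had groups that did not overlap, of which *Zfp1* had nearly equal log2 ratios in A (-0.32) and in B (-0.32).

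The other 3 of the lowest values had overlapping groups. *Zfp7*, a KRAB protein with 16 fingers, stood at 8.12 and 13.3 CPM in shCTR and at 6.57 and 8.77 CPM in shMettl14, and its log2 fold change of -0.48 was -0.085 without shCTR B. *Zfp628* differed more by letter than by hairpin, with 17.4 and 15.1 CPM in the A libraries and 10.01 and 6.94 CPM in the B libraries of shCTR and shMettl14. *Zfp809*, a KRAB protein that silences retroviruses by binding their primer binding site, stood at 16.04 and 53.2 CPM in shCTR and at 21.6 and 30.9 CPM in shMettl14. The library shCTR B stood far above the others for *Zfp809*, the ratio was up in A (0.43) and down in B (-0.78), and the log2 fold change of -0.40 became 0.71 without shCTR B. The 10 lowest genes had a median 3′ UTR of 230 bases and the 10 highest 2880 bases, and the medians of coding GC content were 58.7% and 44.3%.

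**Figure D4:**
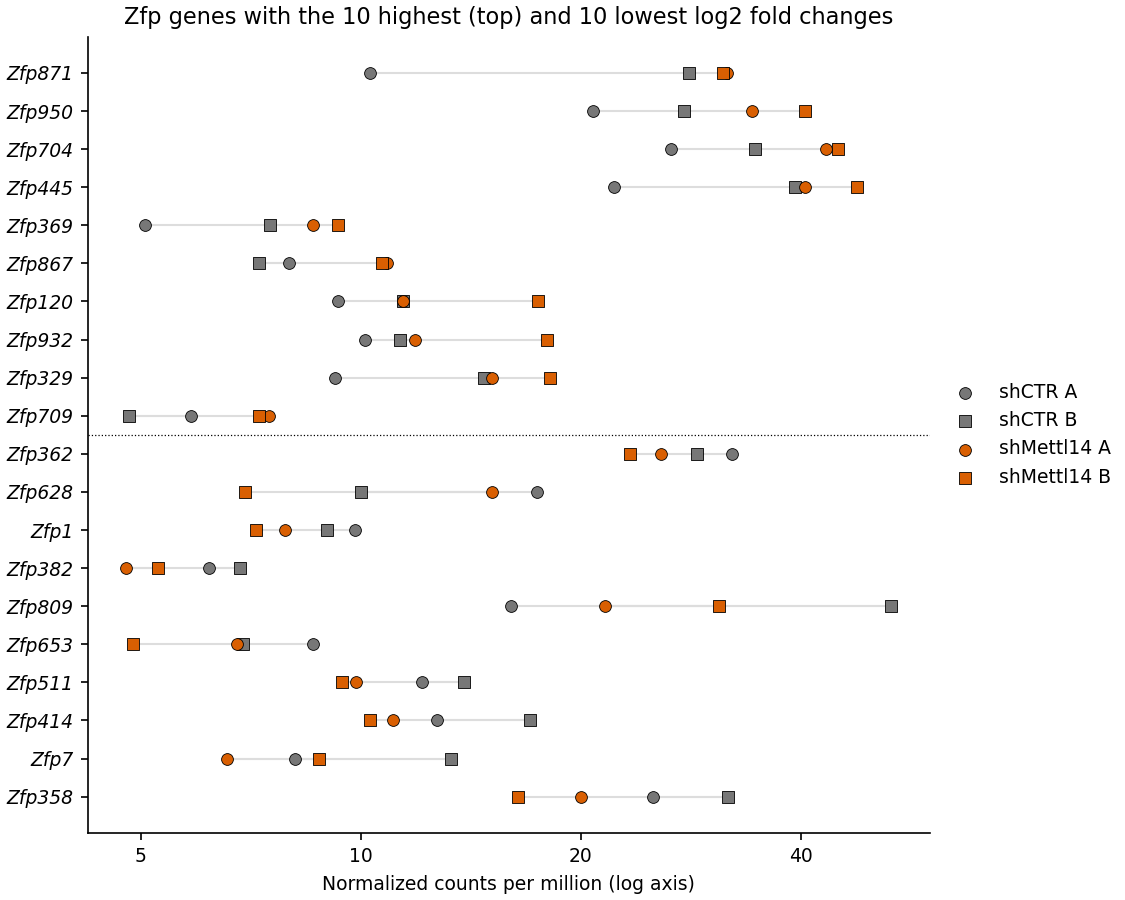
Normalized CPM (x axis, log scale) of the 10 Zfp genes with the highest and the 10 with the lowest log2 fold change, with shCTR in grey, shMettl14 in orange, letter A as circles and letter B as squares. The groups do not overlap in any of the upper 10 rows and in 7 of the lower 10, and shCTR A of Zfp871 (10.3 CPM) and shCTR B of Zfp809 (53.2 CPM) stand apart from the other libraries.

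Zfp genes with a known role were examined from a list of 36 genes in 7 roles, of which 34 were among the 207 and 4, the genes of imprinting and silencing of repeats, encode a KRAB box. Of these 34, 0 had an unadjusted p under 0.05 in edgeR, both shMettl14 libraries stood above both shCTR libraries in 6 (against 10.5% of genes with the floor) and below both in 1 (against 17.1%), and 19 went opposite ways in the letters. Among the RNA-binding members, *Zfp36* stood at 102 and 81.7 CPM in shCTR and at 69.9 and 82.3 CPM in shMettl14, so that only shMettl14 A was low and the log2 fold change was -0.27 ± 0.22 (SE). Its relatives *Zfp36l1* and *Zfp36l2*, also mRNA decay factors, had log2 fold changes of -0.052 and 0.18, and *Zfp36l3* stood at no more than 0.00926 CPM, under the bound for a gene with no reads. *Zfp106*, an RNA-binding protein needed by motor neurons, stood at 145 and 152 CPM in shCTR and at 158 and 158 CPM in shMettl14, a log2 fold change of 0.0875, and 26.1% of its exon bases overlap an exon on the opposite strand. *Zfp638*, which binds nucleic acids in the nucleus, and *Zfp346*, which binds double-stranded RNA, had log2 fold changes of 0.028 and 0.14 with overlapping groups.

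The members that act on ribosomes and protein turnover did not share a direction. *Zfp598*, the ubiquitin ligase that marks collided ribosomes, stood at 70.4 and 38.0 CPM in shCTR and at 70.9 and 44.7 CPM in shMettl14. The A and B libraries of *Zfp598* thus differed more than the hairpins did. *Zfp622*, a factor in the maturation of the large ribosomal subunit, had a log2 fold change of -0.16, with opposite signs in the letters. *Zfp91*, a ubiquitin ligase, stood at 122 and 134 CPM in shCTR and at 156 and 159 CPM in shMettl14, and its log2 fold change of 0.30 ± 0.19 (SE) came with groups that did not overlap. *Zfp207* stood at 127 and 206 CPM in shCTR and at 135 and 157 CPM in shMettl14, with shCTR B far above the rest and opposite signs in the letters.

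Partners of chromatin enzymes differed little between the hairpins. *Zfp687*, which forms a complex with *Zfp592* and *Zfp532*, stood at 29.8 and 25.2 CPM in shCTR and at 34.8 and 29.8 CPM in shMettl14, a log2 fold change of 0.23. *Zfp592* and *Zfp532* had log2 fold changes of -0.15 and -0.098 with opposite signs in the letters. *Zfp217*, a partner of the LSD1 and CoREST demethylase complex, and *Zfp644*, a partner of the G9a methyltransferase, had log2 fold changes of 0.086 and 0.15. *Zfp827*, which recruits the NuRD complex to telomeres, and *Zfp451*, a SUMO ligase, had -0.16 and 0.10. The groups of all of these except *Zfp687* overlapped.

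Of the members that silence imprinted genes and repeats, only *Zfp445* had a log2 fold change above 0. *Zfp57*, which maintains imprints together with *Zfp445*, stood at 35.7 and 70.8 CPM in shCTR and at 32.4 and 56.2 CPM in shMettl14, with a log2 fold change of -0.27 ± 0.44 (SE). It was lower in shMettl14 within both letters, yet the letters differed more than the hairpins. *Zfp568*, which represses the placental promoter of *Igf2*, stood at 37.8 and 33.1 CPM in shCTR and at 31.1 and 31.0 CPM in shMettl14, the 1 role gene with both shMettl14 libraries below both shCTR libraries.

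Factors that bind promoters and factors of cell fate did not share a direction. *Zfp143*, which binds promoters and loop anchors, stood at 13.7 and 27.7 CPM in shCTR and at 16.1 and 18.5 CPM in shMettl14, and its log2 fold change of -0.26 was 0.33 without shCTR B. *Zfp281*, a factor of pluripotent cells, had a log2 fold change of 0.22 with groups that did not overlap, while the related *Zfp148* had 0.19 with groups that overlapped. *Zfp384*, *Zfp410*, *Zfp335* and *Zfp131* lay between -0.10 and 0.11. *Zfp521*, a regulator of progenitor cells, stood at 38.8 and 87.6 CPM in shCTR and at 45.4 and 67.7 CPM in shMettl14. *Zfp516*, a factor of brown fat, had a log2 fold change of 0.26 with groups that did not overlap, and *Zfp462*, which counters heterochromatin, had 0.30 with groups that did. *Zfp467*, *Zfp608*, *Zfp609* and *Zfp703* ran from -0.11 to 0.23, all with opposite signs in the letters. *Zfp503* stood at 81.9 and 15.6 CPM in shCTR and at 94.5 and 25.01 CPM in shMettl14, the largest letter difference of the 207 genes in shCTR, -2.39 on the log2 scale.

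The partners through which KRAB proteins act were more often lower than higher where the groups did not overlap. Both shMettl14 libraries stood below both shCTR libraries in 5 of 13 such genes (38.5%, against 17.1% of genes with the floor) and above both in 1 (7.69%, against 10.5%). Of the 13, 0 had an unadjusted p under 0.05 in edgeR, 4 were higher (30.8%, against 25% of genes with the floor) and 5 lower (38.5%, against 34.6%) in shMettl14 within both letters, and the median log2 fold change was -0.011. *Trim28*, the corepressor that binds the KRAB box, stood at 151 and 148 CPM in shCTR and at 124 and 123 CPM in shMettl14, a log2 fold change of -0.28 ± 0.18 (SE) with groups that did not overlap. *Cbx1*, an HP1 protein, had -0.45 ± 0.20 (SE), also with groups that did not overlap. The other HP1 genes did not go the same way. *Cbx3* had 0.22 and was the 1 gene with both shMettl14 libraries above both shCTR libraries, and *Cbx5* had 0.033. *Setdb1*, the histone methyltransferase, had 0.053. The remaining lower genes without overlap were *Uhrf1* (-0.55), *Morc3* (-0.49) and *Hdac1* (-0.14). Other zinc finger families with the same floor had median log2 fold changes of 0.012 over 30 Zbtb genes and -0.019 over 13 Zscan and Zkscan genes. Of the 30 Zbtb genes, 36.7% were higher and 20% lower within both letters, and of the 13 Zscan and Zkscan genes 30.8% and 15.4%. The 133 Zfp genes under the floor that could be tested had a median of 0.17, with 59 higher and 15 lower within both letters.

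The letter of the library separated the Zfp genes more than the hairpin did in shCTR. In shMettl14 its median difference (0.14) was close to the median hairpin ratio within letter A (0.15) and above that within letter B (0.042). In shCTR, 144 of 207 (69.6%) stood higher in B than in A, against 49.3% of all genes tested and 49.8% of those with the floor, with a median difference of 0.29 on the log2 scale. In shMettl14, 135 stood higher in B, against 49.5% of all genes tested and 50.8% of those with the floor, with a median of 0.14. The KRAB genes carried most of it, since 82 of 95 were higher in B in shCTR and 80 in shMettl14, with medians of 0.41 and 0.31. The medians of the other Zfp genes were 0.11 and -0.018, close in size to their median hairpin ratios of 0.11 in A and 0.017 in B. Higher levels in B were not particular to the Zfp genes, since 20 of 30 Zbtb genes (66.7%) and 9 of 13 Zscan and Zkscan genes (69.2%) also stood higher in B in shCTR. At the extremes in shCTR, *Zfp992*, chosen after its values were seen, differed by 1.82 on the log2 scale (B minus A) and *Zfp503* by -2.39, and 83.5% of the coding words of *Zfp992* also stand in other transcripts.

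Base composition moved with both the hairpin and the letter differences. In the 69 Zfp genes with the lowest coding GC content, the median log2 fold change was 0.16 and the median difference of B from A in shCTR was 0.57. In the middle 69 these were 0.070 and 0.31, and in the 69 with the highest GC content 0.0076 and -0.11. Across the 207 genes the Spearman correlation of GC content was -0.29 with the log2 fold change, -0.33 with the ratio in A, -0.17 with the ratio in B and -0.61 with the letter difference in shCTR. Over 9721 genes with the floor and a coding sequence the same correlations were -0.12, -0.23, 0.030 and -0.50. The log2 fold change also went with the length of the 3′ UTR (0.34, against 0.27 over all genes with the floor) and with the density of AAACC (0.30, against 0.071), while GGACT gave -0.042. With the letter difference in shCTR, the Spearman correlation was 0.42 for AAACC density, 0.15 for 3′ UTR length and -0.17 for GGACT density. Over all genes with the floor these were 0.27, 0.22 and -0.070. These correlations are across genes of the same 4 libraries and AAACC density varies with GC content, so they describe the libraries, and the part of base composition in the hairpin differences was not tested.

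**Figure D5:**
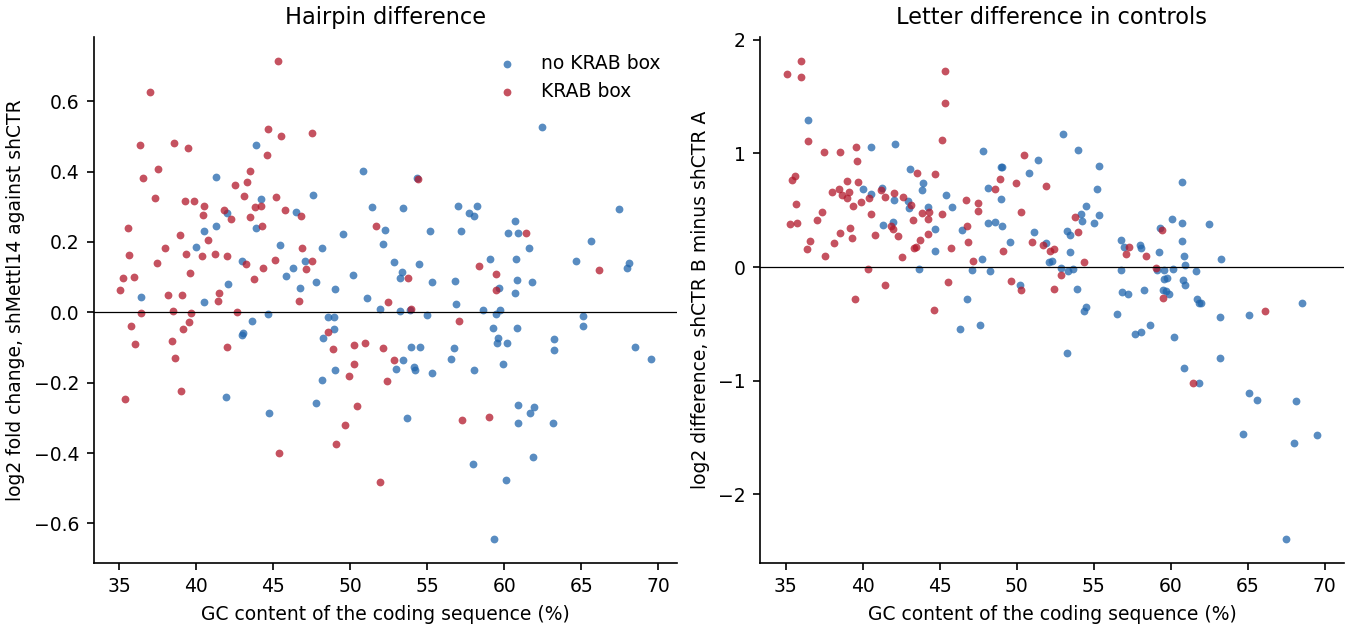
GC content of the coding sequence (x axis, percent) of each of 207 Zfp genes against its log2 fold change of shMettl14 to shCTR (left) and its log2 difference of shCTR B from shCTR A (right), with KRAB genes in red. The Spearman correlations are -0.29 on the left and -0.61 on the right, where the genes of low GC content lie mostly above 0.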

How the data were processed

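The deposited file is a table of raw read counts per gene symbol, without normalization, for 2 shCTR and 2 shMettl14 libraries of VSMCs. The authors prepared stranded poly-A libraries, aligned the read pairs to mm10 (GRCm38) with STAR and counted with featureCounts; strand and multimapping settings are not given in the sources used here. The counts were tested with edgeR 4.0.16 in R 4.3.3 over the whole table: TMM scaling, filterByExpr (18916 genes kept), robust quasi-likelihood test of shMettl14 against shCTR without a block, Benjamini-Hochberg adjustment over all genes. The standard error of a change was taken as its size over the root of the F statistic. Ratios within letters used log2 CPM with a prior count of 2. On simulated counts the fit returned the log2 fold changes that had been set. Fingers, KRAB boxes (in the first 400 residues), words, exons and lengths were read from the longest complete coding sequence of each gene in GENCODE M21 with Python 3.11.15; words were counted on the sense strand, and AAACC and GGACT cannot overlap each other. Finger and box counts come from patterns in translated sequence and are estimates.

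The genes named are *Mettl14*, the 10 highest and 10 lowest log2 fold changes, the 5 highest levels, 4 genes on each side of the floor and 34 genes with a listed role. The Zfp genes, the gene lists and the tests were chosen with earlier results of these data known. Alternatives were DESeq2 1.42.0, a letter block, RLE and upper-quartile scaling, a filter of 10 counts in each library or no filter, another prior count, other floors, and each library left out in turn.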

Additional observations from a re-analysis of the deposited data

How the results depend on the processing

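No Zfp gene had an adjusted p under 0.05 in any alternative, by edgeR or DESeq2. The number with an unadjusted p under 0.05 in edgeR, 1 of 207, was 0 with upper-quartile scaling, 2 without a filter, 2 at a floor of 200 counts (278 genes) and 0 to 9 when a library was left out. With the letter as a block it was 20 (16 higher and 4 lower), against 10.3% of all genes tested. Deviations of libraries of the same letter from their group means correlated across 18916 genes (Pearson 0.578, Spearman 0.524), but no source says that a letter stands for a shared culture, and there are only 2 pairs, so the block was not used for the values above. The median log2 fold change of the Zfp genes stayed between 0.075 and 0.11 under other scalings, filters and floors, and ran from -0.047 to 0.26 when a library was left out. The number higher within both letters was 56 at a floor of 1000 counts (140 genes), and the number of KRAB genes was 58 when both patterns were asked for. Of 63 named genes, the other scalings, tools and filters turned the direction of 0, and leaving out a library turned 32. Their log2 fold changes then ran over these ranges: *Zfp809* -1.02 to 0.71, *Zfp628* -0.98 to 0.14, *Zfp207* -0.49 to 0.19, *Zfp706* -0.18 to 0.028, *Zfp146* -0.31 to 0.28, *Zfp595* -0.44 to 0.42, *Zfp105* -0.20 to 0.43, *Zfp40* -0.68 to 0.83, *Zfp202* -0.23 to 0.22, *Zfp638* -0.25 to 0.38, *Zfp346* -0.033 to 0.33, *Zfp598* -0.29 to 0.61, *Zfp622* -0.42 to 0.15, *Zfp217* -0.12 to 0.33, *Zfp644* -0.11 to 0.46, *Zfp592* -0.36 to 0.094, *Zfp532* -0.34 to 0.19, *Zfp827* -0.35 to 0.049, *Zfp451* -0.13 to 0.39, *Zfp57* -0.71 to 0.31, *Zfp143* -0.68 to 0.33, *Zfp148* -0.086 to 0.54, *Zfp384* -0.21 to 0.018, *Zfp335* -0.34 to 0.21, *Zfp131* -0.30 to 0.22, *Zfp521* -0.63 to 0.54, *Zfp462* -0.090 to 0.84, *Zfp703* -0.34 to 0.85, *Zfp503* -0.96 to 1.94, *Zfp467* -0.28 to 0.053, *Zfp608* -0.051 to 0.26 and *Zfp609* -0.067 to 0.61. The cause was not tested. At totals of at least 114343653 counts, each Zfp gene had at least 506 counts per library, and the number of libraries, 2 per group, limits the precision.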
